A study of Homo sapiens with 4 samples.

Results

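Stretches of the MCF10A genome that carried serine 2 phosphorylated RNA polymerase II (S2p) with no detected serine 5 phosphorylated form (S5p) are described here. They were chosen by measured values of the S2p and S5p lists: regions of the deposited S2p list on chromosomes 1 to 22, at least 3 kb and under 20 kb wide, that overlapped no region of the deposited S5p list by 1 bp or more. This gave 1542 of the 53422 S2p regions, or 13.9% of the 11067 S2p regions of that width. They are called mid-width S5p-free regions here, and the 9525 of the same width that met S5p are called mid-width S5p-bearing regions. Together the 1542 regions covered 7.58 Mb, which was 26.6% of the bases in S2p regions without S5p.

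MCF10A is an established, non-tumour human breast epithelial line, grown here under normal conditions with no treatment. ChIP-seq, the sequencing of DNA pulled down with an antibody from crosslinked chromatin, was done for S2p, S5p and the DNA damage response protein 53BP1, and an input was also prepared but not analysed here. There was 1 library per ChIP, with no replicates and only 1 condition, so every comparison below is a description with no test. The lists hold no gene names and the gene table at hand was of another genome build, so the cell line could not be checked against marker genes and regions are given by position in hg19.

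The C-terminal domain of the largest subunit of RNA polymerase II (Pol II) is a long repeat that is phosphorylated in a set order. Serine 5 is phosphorylated by the kinase of the general factor TFIIH as Pol II starts, and S5p is known to be highest close to promoters. Serine 2 is phosphorylated by P-TEFb and by later elongation kinases, and S2p is known to build up along gene bodies and towards the ends of genes, where it helps to recruit factors for histone methylation, cleavage and polyadenylation. 53BP1 is a chromatin reader that directs the choice of double-strand break repair and also binds p53.

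The widths and the lack of S5p chose these regions, so the S2p values that follow are a description. The regions were of moderate strength within the S2p list. Their fold enrichment, the authors' ratio over background, had a median of 4.92 (interval 4.81 to 5.00) and a range of 1.83 to 17.96. In mid-width S5p-bearing regions the median was 7.85 (7.68 to 7.99) and the range 1.83 to 223. Intervals of medians are exact 95% intervals from order statistics, and those of shares are exact Clopper-Pearson 95% intervals. Both treat regions as independent and cover counting error only. The median S5p-free region stood at the 73.4th percentile of all S2p regions by fold, against the 87.2nd for the S5p-bearing ones, and the highest reached the 95.96th percentile. Widths had a median of 4177 bp (quartiles 3483 and 5657 bp) in S5p-free regions, against 6307 bp (4239 and 9925 bp) in S5p-bearing ones.

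The share of S2p regions that lacked S5p was lower in wider and in stronger regions. It was 23.2% (21.9 to 24.5) from 3 to 5 kb, 11.0% (10.1 to 12.0) from 5 to 10 kb and 2.12% (1.58 to 2.78) from 10 to 20 kb. Only 2 S2p regions of 20 kb or more lacked S5p, against 1008 of that width that met it. By S2p fold, 28.5% (26.2 to 31.0) of mid-width regions under 4 lacked S5p, 24.1% (22.6 to 25.7) from 4 to 6, 12.1% (11.0 to 13.3) from 6 to 10 and 1.55% (1.17 to 2.02) at 10 or more. Width and fold moved together within the S5p-free regions (Spearman rho 0.40, 1542 regions) and within the S5p-bearing ones (rho 0.52, 9525 regions). A wider region has more room to touch S5p, so part of the relation to width was given by the rule. Width and fold both come from the same S2p reads.

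**Figure D1:**
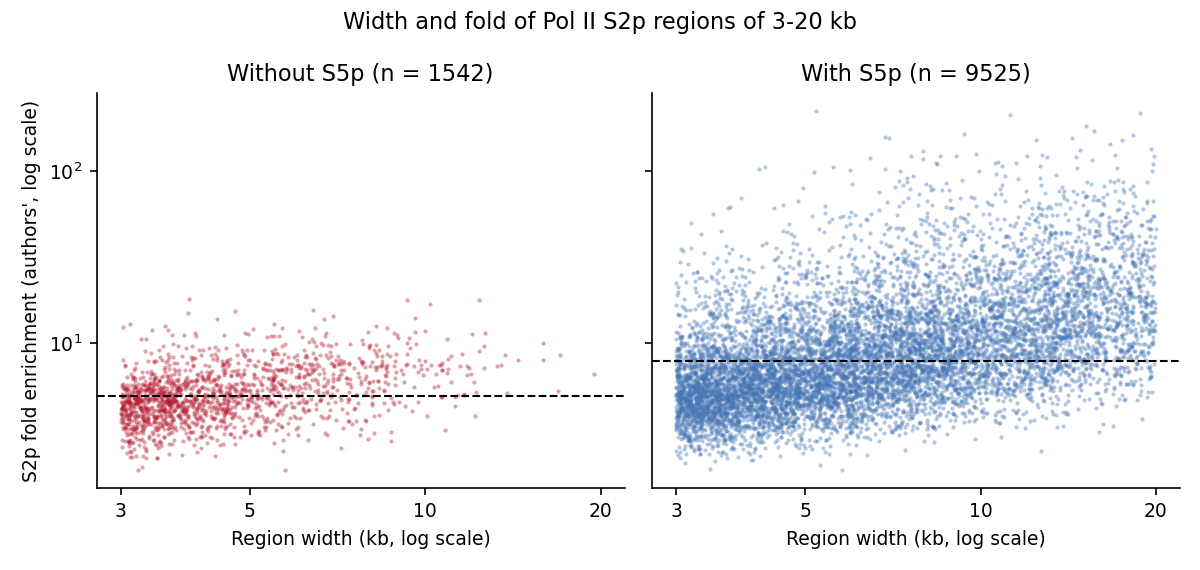
Each point is an S2p region of 3-20 kb, with its width in kb on the x axis and the authors' S2p fold enrichment on the y axis, both on log scales; regions without S5p are on the left, those with S5p on the right, and dashed lines mark the medians of 4.92 and 7.85. The regions without S5p stay below a fold of 18 and thin out above 10 kb.

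The median S2p fold was much the same on either side of the 3 kb limit. The 92 S5p-free regions that exceeded 3 kb by less than 100 bp had a median S2p fold of 4.21, and the 88 that fell short of it by no more than 100 bp had one of 4.13. The S5p-free region nearest to S5p lay 30 bp from it, and 3 lay within 100 bp, with a median S2p fold of 3.69. Across the line, 2 mid-width regions had no more than 100 bp inside S5p, the smallest overlap being 26 bp, and their median fold was 3.64. With 3 and 2 regions, the sides of the overlap limit are too small to compare.

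Most S5p-free regions were not at the edge of an S5p region. The median distance to the nearest S5p region was 11533 bp (10492 to 12694), with quartiles of 3526 and 36267 bp. Of the 1542 regions, 99 (6.42%) lay within 1 kb of S5p, 342 (22.2%) within 3 kb, 715 (46.4%) within 10 kb and 1437 (93.2%) within 100 kb, which left 105 beyond that. The 22479 narrow S2p regions without S5p, under 3 kb wide, lay closer to S5p. Their median distance was 5053 bp (4923 to 5203), and 65.9% (65.2 to 66.5) were within 10 kb, against 46.4% (43.9 to 48.9) for the mid-width ones.

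Regions far from S5p did not have a lower median S2p fold than regions close to it. The median S2p fold was 4.60 (4.26 to 4.95) within 1 kb of S5p, 4.73 (4.50 to 5.00) from 1 to 3 kb, 4.69 (4.58 to 4.89) from 3 to 10 kb, 5.20 (4.87 to 5.37) from 10 to 30 kb, 5.00 (4.84 to 5.28) from 30 to 100 kb and 5.54 (5.06 to 6.23) beyond 100 kb. Across the 1542 regions the rank correlation of distance and fold was 0.14, and that of distance and width 0.10. Median width went with distance in the same direction, from 3805 bp within 1 kb to 4507 bp beyond 100 kb.

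Taken over all distances, the S2p summit showed no lean towards or away from S5p. With each region turned so that the nearest S5p region lay on the same side, 752 of 1542 summits (48.8%, 46.2 to 51.3) lay beyond the region's midpoint as seen from S5p, against 49.5% (48.9 to 50.2) in narrow S5p-free regions. When regions were turned by the stronger of the 2 flanking S5p regions instead, 51.0% (48.5 to 53.6) of summits lay beyond the midpoint as seen from it. Summits were central more often than at the ends: 451 (29.2%) lay in the central 20% of the region and 132 (8.56%) in the outer 20%, close to the 27.6% and 7.44% of mid-width S5p-bearing regions.

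**Figure D2:**
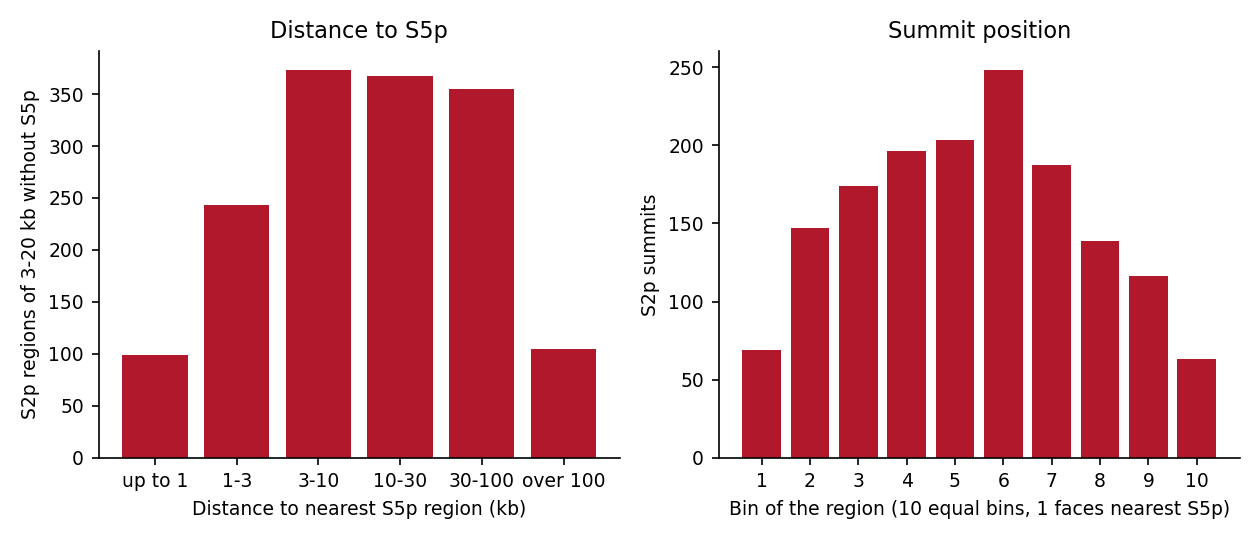
Left, the number of S2p regions of 3-20 kb without S5p by distance in kb to the nearest S5p region; right, the number of their S2p summits in 10 bins of equal length along the region, where bin 1 faces the nearest S5p region. Distances are spread from under 1 kb (99 regions) to over 100 kb (105 regions), and summits are most frequent in bin 6 (248), with 69 and 63 in bins 1 and 10.

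The S5p regions on either side of these regions were mixed in strength. The nearer flanking S5p region had a median S5p fold of 3.79 (3.71 to 3.97; quartiles 2.95 and 11.1), against 3.76 over all S5p regions, and the farther one had 4.55 (4.38 to 4.93; quartiles 3.13 and 14.5). In 803 of 1542 cases (52.1%, 49.5 to 54.6) at least the stronger flank was in the top 20% of the S5p list, and in 299 (19.4%, 17.4 to 21.5) both flanks were in its lower 50%. Around narrow S5p-free regions these shares were 40.8% (40.1 to 41.4) and 30.7% (30.1 to 31.3). The stronger flank was the nearer one for 45.3% (42.8 to 47.9) of mid-width S5p-free regions, against 46.3% (45.7 to 47.0) of narrow ones. The nearest S5p region stood at a median of the 40.8th percentile of its list within 1 kb, the 39.9th from 1 to 3 kb, the 49.9th from 3 to 10 kb, the 57.5th from 10 to 30 kb, the 57.9th from 30 to 100 kb and the 77.8th where it lay beyond 100 kb.

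The stretches without S5p that held these regions were long. A stretch here is the interval between consecutive S5p regions on a chromosome. There were 61241 stretches with a median length of 2543 bp, and 1308 of them held at least 1 mid-width S5p-free region, with a median length of 87931 bp. The share of stretches with such a region was 0.125% up to 10 kb, 3.54% from 10 to 30 kb, 6.64% from 30 to 100 kb and 12.4% beyond 100 kb. A short stretch cannot hold a wide region and a long stretch holds more bases, so part of this rise was given by the lengths. The number of these regions per base of stretch is not given here, so the rise does not show that they favoured long stretches. S2p regions took up a median of 11.6% of the stretch (quartiles 4.71 and 30.4%), and in 210 of the 1308 (16.1%) the mid-width region was the only S2p region clear of S5p.

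Some stretches carried several of these regions, which therefore share a neighbourhood. Of the 1308 stretches, 182 held 2 or more, and these contained 416 of the 1542 regions (27.0%). The most in 1 stretch was 6, on chromosome 22 at 18257231 to 18340371, an interval of 83141 bp with 16 S2p regions that together covered 72.9% of it. On chromosome 17, 78867084 to 78943403 held 5 among 15 S2p regions, with 55.1% of its bases inside S2p. On chromosome 10, 29712504 to 29844383 also held 5 among 10 S2p regions, with 19.5% of its bases inside S2p.

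S2p was plentiful around these regions and covered fewer bases on the side away from S5p. In the 2 kb that began 2 kb from the edge, 40.0% of bases were inside S2p regions on the side of the nearest S5p region and 27.5% on the far side. At 48 to 50 kb the values were 14.8% and 9.81%, against 5.39% of all bases on these chromosomes up to their last listed region. S5p was sparser on the far side by construction, with 11.4% of bases on the near side and 2.02% on the far side at 4 to 6 kb. The 60.4% of all S5p regions that met S2p are part of the near-side S2p, and their part in the difference between the sides was not tested. Set beside narrow S5p-free regions, the order on the far side changed with distance. Far-side S2p covered 23.8% of bases around mid-width regions and 17.3% around narrow ones in the first 2 kb, 21.2% and 23.3% at 4 to 6 kb, 13.1% and 20.7% at 14 to 16 kb, and 9.81% and 15.6% at 48 to 50 kb. On the near side at 4 to 6 kb it was 36.4% around mid-width and 38.6% around narrow regions.

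**Figure D3:**
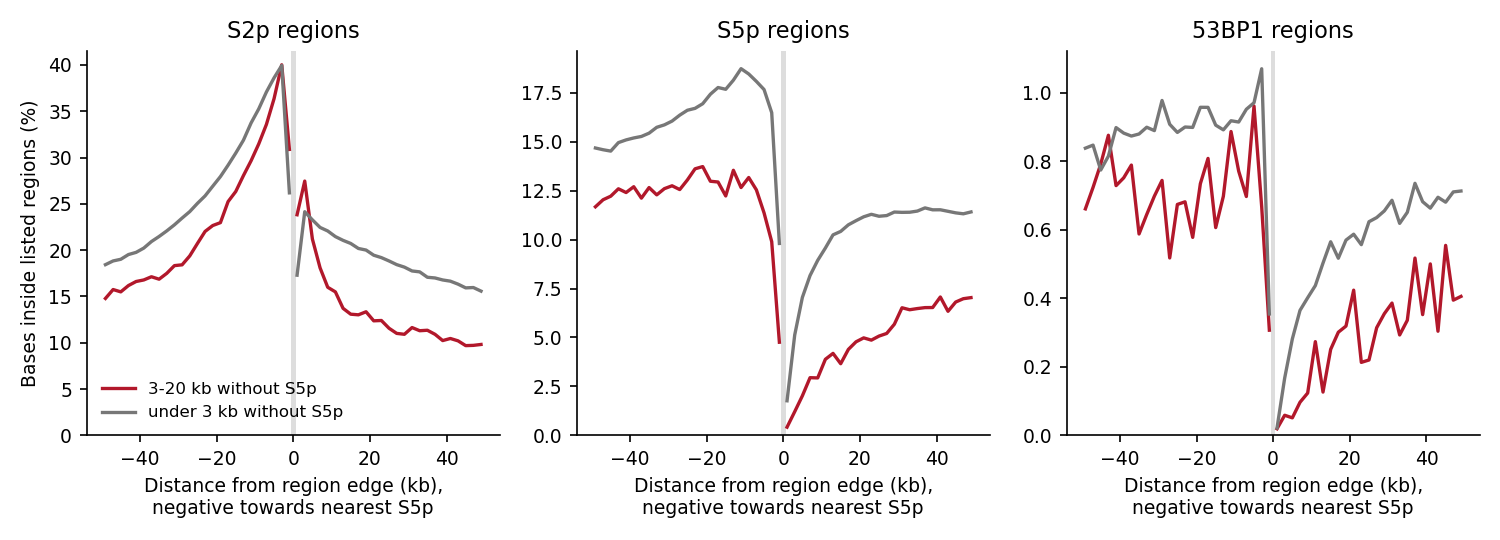
Share of bases (%) inside S2p, S5p and 53BP1 regions in 2 kb bins against distance in kb from the region's edge, with the side of the nearest S5p region on the left; red lines are the 1542 S2p regions of 3-20 kb without S5p and grey lines the 22479 narrower ones. S2p stays above 9% to 50 kb on both sides in red. In red, 53BP1 runs from 0.0192% in the first 2 kb on the far side to 0.961% on the near side. Over all bases of these chromosomes up to their last listed region, 53BP1 regions cover 0.259%.

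Most of these regions had another S2p region close by. The median gap to the nearest S2p region was 700.5 bp (675 to 735), and 1003 of 1542 (65.0%) had one within 1 kb. This closeness was not particular to them, as mid-width S5p-bearing regions had a median gap of 654 bp (641 to 665). When S2p regions at most 1 kb apart were joined, 333 (21.6%) of the S5p-free regions became part of a block that met S5p, 648 (42.0%) became part of a block up to 20 kb wide without S5p, 22 (1.43%) part of a wider block without S5p, and 539 (35.0%) had no neighbour to join.

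Joined over gaps of up to 5 kb, S2p regions formed chains, and over 50% of the S5p-free regions sat in chains where no S2p region met S5p. Such a chain is called a chain without S5p here. An S5p region that touched no S2p region could still lie in its gaps or beside it. Chains without S5p held 842 of 1542 regions (54.6%, 52.1 to 57.1), against 40.1% (39.4 to 40.7) of narrow S5p-free regions. These 842 lay at a median of 32612 bp (30227 to 35493) from S5p, with a median S2p fold of 5.20 (5.02 to 5.34). The 700 in chains with S5p lay at a median of 3464 bp (3092 to 3783) from it, with a fold of 4.61 (4.53 to 4.73). Gaps of at most 5 kb link these 700 to S2p that met S5p, so part of the difference in distance was given by how chains were made. By place, 194 (12.6%) were alone in their chain, 591 (38.3%) at an end of it and 757 (49.1%) inside it. The share in chains without S5p followed the gap allowed, at 66.8% with 2 kb and 46.2% with 10 kb.

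The longest such chain without S5p was on chromosome 1 at 62579601 to 62637699. It ran for 58099 bp with 18 S2p regions that covered 56.2% of it, and the one closest to S5p lay 239909 bp from it. Of these, 16 were under 3 kb wide, with folds of 2.17 to 4.75. The other two were mid-width: 62589349 to 62592925, with a fold of 4.21, and 62629511 to 62636445, with a fold of 14.4. The region of fold 14.4 stood at the 94.5th percentile of the S2p list and its nearest S5p region, 263914 bp away, had an S5p fold of 50.03.

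**Figure D4:**
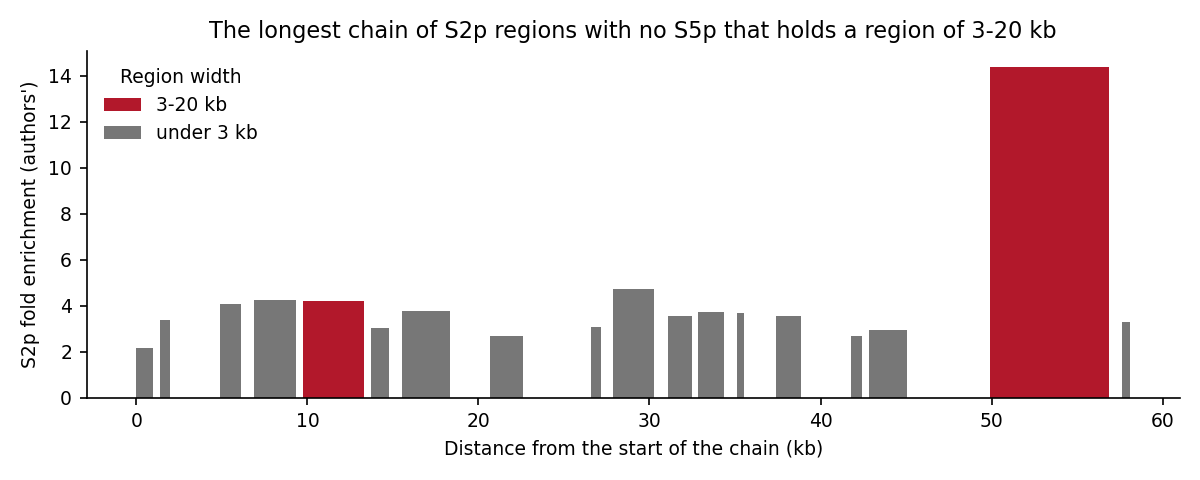
S2p regions of the longest chain with no S5p that holds a region of 3-20 kb, on chromosome 1, as bars at their distance in kb from the start of the chain, with bar width equal to region width and height equal to the authors' S2p fold. The 6935 bp region near the end reaches 14.4, and the others stay between 2.17 and 4.75.

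The 10 strongest of the S5p-free regions lay on 6 chromosomes, with S2p folds of 13.8 to 17.96. Leading them, 55289157 to 55293077 of chromosome 7 reached a fold of 17.96, in a chain of 22 S2p regions and 3233 bp from an S5p region of fold 3.59. Next came chromosome 7 at 131182042 to 131194409, with a fold of 17.95 over 12368 bp, 116114 bp from the nearest S5p region and 126 kb from the one on its other side. The third, 95593402 to 95602697 of chromosome 4, had a fold of 17.8 and lay 704 bp from an S5p region of fold 3.16.

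Of the remaining 7, chromosome 1 held 3. The region at 45305935 to 45316139 (fold 16.96) lay 11665 bp from S5p, the one at 51808545 to 51818130 (fold 13.98) stood alone in its chain 28169 bp from S5p, and the third is the one in the long chain. Chromosome 14 at 31353013 to 31359425 (fold 15.6) and chromosome 15 at 56375425 to 56380140 (fold 15.4) lay 75669 and 87048 bp from S5p. Chromosome 7 at 72440412 to 72444325 (fold 14.97) and chromosome 16 at 23063347 to 23067742 (fold 13.8) lay 9134 and 2937 bp from S5p. Except for the region in the long chain, the nearest S5p regions of these 10 stood between the 22.5th and the 73.2nd percentile of the S5p list. The closest that any 53BP1 region came to these 10 was 19822 bp.

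The 5 regions farthest from S5p lay on 5 chromosomes. Chromosome 15 at 28352444 to 28355813 was 626802 bp from S5p on 1 side and 2024 kb on the other, with an S2p fold of 5.50, and it was alone in its chain. Chromosome 14 at 72207937 to 72212524 was 368059 bp away with a fold of 7.33, and chromosome 2 at 135213735 to 135217568 was 310180 bp away with a fold of 4.03. Chromosome 7 at 132460508 to 132466248 was 300004 bp away with a fold of 9.92, and chromosome 1 at 197471461 to 197474529 was 269140 bp away with a fold of 5.00. All 5 were 3069 to 5741 bp wide, and 3 of them had no other S2p region within 5 kb.

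The 5 widest were 15929 to 19515 bp across, with S2p folds of 5.26 to 10.1. At the top, 75307130 to 75326644 of chromosome 14 had an S2p fold of 6.62 and lay almost midway between S5p regions, at 20.7 and 21.4 kb. The chromosome 1 region 46488309 to 46505362 (fold 8.51) was 91.9 kb from S5p, and the chromosome 5 region 141533660 to 141550572 (fold 5.26) was 2057 bp from it. Chromosome 2 at 10342354 to 10358289 and chromosome 6 at 139206066 to 139221994 had folds of 7.96 and 10.1.

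53BP1 was hardly detected in these regions. It was detected in 2 of 1542 (0.130%, 0.0157 to 0.468), against 2144 of 9525 (22.5%, 21.7 to 23.4) mid-width S5p-bearing regions. It was found in 19.4% of all mid-width S2p regions, 13.9% of all S2p regions and 0.0208% of all S2p regions without S5p. Of the 53BP1 regions on these chromosomes, 97.6% lay on S5p, so a low share in regions chosen to lack S5p was given in advance and is no separate result. Dividing the regions by S2p fold does not lift that limit, so the counts by fold are a description only. Under a fold of 4, 1 of 389 S5p-free regions held 53BP1, against 56 of 974 (5.75%) S5p-bearing ones. From 6 to 10 it was 1 of 392, against 507 of 2844 (17.8%). From 4 to 6 it was 0 of 706, which by a limit of 3 counts of the total allows a share of up to 0.425%, against 10.2%. At 10 or more it was 0 of 55, which by the same limit allows up to 5.45%, against 38.9%. The Clopper-Pearson upper bounds are 0.521% and 6.49%.

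53BP1 was also rarely detected in mid-width S2p regions that met only weak S5p, in a comparison chosen after values were seen. S5p was called weak where its −log10 q-value was under 5. 53BP1 was held by 2 of 1542 regions with no S5p (0.130%), 2 of 1684 with weak S5p alone (0.119%, 0.0144 to 0.428) and 2142 of 7841 with stronger S5p (27.3%, 26.3 to 28.3). The median S2p fold was 4.92 with no S5p, 5.30 (5.20 to 5.43) with weak S5p and 8.79 (8.62 to 8.97) with stronger S5p. The groups also differed in extent: weak S5p covered a median of 21.3% of the S2p region and stronger S5p 74.8%. Their median widths were 4709.5 and 6810 bp. The share of all weak S5p regions that held 53BP1 is not given here, so whether this is general to weak S5p was not tested. The median distance to the nearest 53BP1 region was 55188 bp (51190 to 59097) without S5p, 31115 bp (29266 to 32848) with weak S5p and 7160 bp (6698 to 7680) with stronger S5p. With 97.6% of 53BP1 regions on S5p, part of the longer distance without S5p was given by the choice of regions.

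Both S5p-free regions that held 53BP1 held a weak piece of it. On chromosome 1, the S2p region 36530414 to 36537308 (fold 7.68, 16818 bp from S5p) contained the 53BP1 region 36533116 to 36533363. That 53BP1 region had a 53BP1 fold of 3.15, at the 2.09th percentile of the 11370 53BP1 regions, and its summit was 112 bp from the S2p summit. On chromosome 14, the S2p region 103388521 to 103392696 (fold 3.95, 4060 bp from S5p) contained 103389243 to 103389537, with a 53BP1 fold of 3.47, at the 5.88th percentile, and a summit 526 bp from the S2p summit. Both were dropped when 53BP1 regions were limited to a −log10 q-value of 5 or more, which left 0 of 1542 and allows a share of up to 0.195% by the limit of 3 counts (Clopper-Pearson upper bound 0.239%).

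53BP1 was found at the ends of the stretch more often for these regions than for narrow S5p-free ones. At least 1 flanking S5p region held 53BP1 for 695 of 1542 S5p-free regions (45.1%, 42.6 to 47.6), against 34.2% (33.5 to 34.8) for narrow ones. Of all S5p regions, 15.2% held 53BP1, a share per S5p region and not per pair of flanks. The share over all pairs of consecutive S5p regions is not given here, and S5p-free regions in the same stretch share their flanks. A flank in the top 20% of the S5p list was also more frequent around mid-width regions (52.1% against 40.8%), and its part was not tested. Of the 1542, 829 (53.8%) were more than 50 kb from any 53BP1 region, against 14.9% (14.2 to 15.6) of S5p-bearing and 38.7% (38.0 to 39.3) of narrow S5p-free regions. Because 97.6% of 53BP1 regions lay on S5p, part of the gap to S5p-bearing regions was given by the choice of regions off S5p. Narrow S5p-free regions lay closer to S5p, and across the 1542 regions distance to S5p and distance to 53BP1 went together (Spearman rho 0.47).

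The share of mid-width S2p regions that lacked S5p differed by chromosome. It was lowest on chromosome 19, with 42 of 743 (5.65%, 4.10 to 7.56), followed by chromosome 16 (7.80%, 5.75 to 10.3), chromosome 17 (8.66%, 6.59 to 11.1) and chromosome 20 (8.76%, 5.95 to 12.3). It was highest on chromosome 18, with 41 of 176 (23.3%, 17.3 to 30.2), and chromosome 13, with 47 of 211 (22.3%, 16.8 to 28.5). In these first 4 of 22 chromosomes the interval lay wholly below the overall 13.9%, and in 4 (chromosomes 4, 8, 13 and 18) wholly above it. Chromosomes with more S5p regions per 100 S2p regions, which ran from 106 on chromosome 4 to 131 on chromosome 20, had a lower share by rank (rho -0.56 over 22 chromosomes). More S5p regions leave fewer S2p regions clear of S5p, so this relation comes from values the choice of regions used. The median distance to S5p ran from 3652 bp on chromosome 19 to 23583 bp on chromosome 6.

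**Figure D5:**
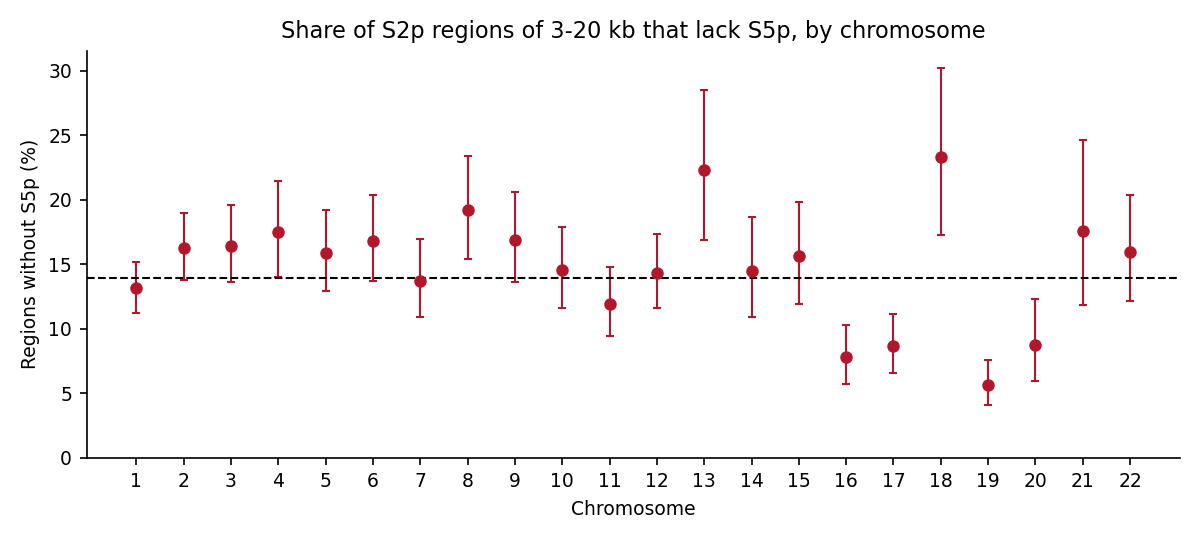
Share (%) of S2p regions of 3-20 kb that lack S5p on each chromosome, with exact 95% Clopper-Pearson intervals as bars and the overall share of 13.9% as a dashed line. The intervals of chromosomes 16, 17, 19 and 20 lie wholly below the line and those of chromosomes 4, 8, 13 and 18 wholly above it.

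In windows of 1 Mb, S5p-free regions were spread over many windows, and some windows held several. They fell in 942 of the 2062 windows that held any S2p region, with 1 region in 562 windows and 4 or more in 46. The fullest windows held 8 each, at 32000001 to 33000000 of chromosome 12 and 78000001 to 79000000 of chromosome 17. A window of chromosome 22, 18000001 to 19000000, held 7, and those at 171000001 to 172000000 of chromosome 5 and 30000001 to 31000000 of chromosome 7 held 6 each. A further window also held 6, and the tie was broken by the bases in S5p-free regions. In the order given, the 5 windows held 22, 57, 60, 48 and 41 S5p regions beside 38, 80, 63, 47 and 65 S2p regions, and 5, 14, 8, 4 and 8 53BP1 regions. Of the 942 windows with an S5p-free region, 6 had no S5p region at all, and 38, with 55 of the regions, had no 53BP1 region. How many of all 2062 windows lacked S5p or 53BP1 is not given here, so these counts are a description only.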

How the data were processed

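ChIP-seq was done on formaldehyde-crosslinked MCF10A chromatin. Samples were grouped by their titles, with 1 library each for 53BP1, S5p, S2p and input; the input was not analysed here. The authors deposited 1 list of enriched regions per ChIP, in hg19 per the submitters' processing notes, which also name bcl2fastq 2.20.0.422. No source used here gives the aligner, peak caller, control or any pooling, and read depth is unknown. Each deposited region has a fold ratio over background, −log10 p-value, −log10 q-value, summit offset and a score, in every row 10 times the −log10 q-value to within 1. Folds rank regions within a list only, and a deeper library can give more and wider regions.

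Rows outside chromosomes 1 to 22 were left out (1179 S2p, 1269 S5p, 235 53BP1), which left 61263 S5p and 11370 53BP1 regions. No list had overlapping rows. Overlap meant at least 1 bp, and chains joined gaps of up to 5 kb. Functions were tested on simulated data. The regions and comparisons were chosen with earlier results of these data known. Regions named are the 10 strongest, 5 farthest from S5p, 5 widest, those holding 53BP1, those in the longest chain without S5p, and the 5 fullest 1 Mb windows, with a tie for the last place broken by bases in such regions; the 3 fullest stretches were added after their values were seen. No gene was named, no position converted and the planned analysis along genes was not run, since the gene table was of GRCh38. Alternatives were stricter q-values, other overlap definitions, widths and chain gaps, chromosome X, joining and ranking by q-value. Tools were scipy 1.17.1, pandas 2.3.3, numpy 2.4.6, matplotlib 3.10.9 and Python 3.11.15.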

Additional observations from a re-analysis of the deposited data

How the results depend on the processing

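Of 46 recomputed values over 11 alternatives, 27 stayed within 1.5 times the reported number of regions or within the reported value's 95% interval, and 19 moved. Dropping S5p regions with a −log10 q-value under 5 gave 3226 regions in place of 1542, and a median S2p percentile of 75.1. With both Pol II lists so limited there were 3032 regions, with a percentile of 56.8 and 63.2% in chains without S5p. Widths of 5 to 20 kb gave 518 regions, a median distance to S5p of 15511 bp, a percentile of 81.4 and 61.6% in chains without S5p. Excluding regions within 1 kb of S5p gave 13205 bp and 57.5%. Excluding only those with 10% or more covered by S5p gave 7119 bp and a percentile of 74.8. Joining S2p regions at most 1 kb apart gave 13357 bp, a percentile of 62.9 and 63.1%. Chain gaps of 2 and 10 kb gave 66.8% and 46.2%. Limiting 53BP1 to that q-value gave a share of 0%. The chain gaps and the 53BP1 limit kept the same 1542 regions. The others changed which regions were admitted or, by joining, their extent. With both Pol II lists limited, or with S2p regions joined, the percentiles of 56.8 and 62.9 were ranks within the changed S2p list. They are therefore not on the same scale as the reported percentile. The cause of the moves was not otherwise tested. The share of summits beyond the midpoint as seen from S5p stayed at 47.9 to 50.6% under the 7 alternatives run for it. No paired analysis was possible because there were no replicates. With unknown depth, S5p that was not detected is not shown to be absent, and the number of S5p-free regions depends on the S5p threshold more than on any other alternative that kept the width limits.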
